A study of Mus musculus with 19 samples.

Results

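The regions described here carried 5-hydroxymethylcytosine (5hmC) early in the conversion of mouse pre-iPSCs, had no called peak in wild-type cells by day 10, and still had one in both knockout lines. They were chosen from the authors' peak lists. All peaks of the 9 wild-type (WT) lists on chromosomes 1 to 19 were merged where they overlapped by 1 bp, which gave 294585 regions. A region was kept when it had a peak in all 3 WT lists of day 0 (D0), in all 3 of day 2 (D2), in none of the 3 of day 10 (D10), and in the D10 lists of both KO1 and KO2. This held for 6605 regions, 2.24% of all merged WT regions, spanning 6.53 Mb. Presence in WT cells and in KO cells at D10 therefore chose the regions, and is given below as a description only.

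The cells were pre-iPSCs derived from mouse embryonic fibroblasts, which are intermediates that have stalled on the way to induced pluripotency. Cultures were treated with 50 µg/mL ascorbic acid and 2i, the GSK3 inhibitor CHIR-99021 with the MEK inhibitor PD-0325901. The labels give this treatment to all 15 pre-iPSC libraries used here, WT and KO, D0 included. WT cells had replicates A, B and C on each day; KO1 and KO2 had 1 library each per day. What they lack is not named in the labels; that they are a pair of lines of the same knockout, each followed over the 3 days, is assumed from the titles. Their run names differ, with a CRISPR knockout spelled out for KO1 and the letters CKO for KO2. The V6.5 line of mouse embryonic stem cells (mESC), labelled with the same agents, had 1 library each at 0, 12 and 72 hours. Whether replicates were separate cultures is not stated, so p-values measure the spread between these libraries, which may be technical.

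5hmC is made when TET enzymes oxidise 5-methylcytosine, and it is commonly found at active enhancers and over the bodies of expressed genes. TET enzymes need iron and 2-oxoglutarate, and ascorbic acid supports their activity. The mark can be lost by dilution as cells divide or by further oxidation and repair. Cells that change identity therefore exchange the 5hmC of the old cell type for that of the new, and reprogramming of fibroblasts involves both a loss and a gain of marked sites.

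The lists differed in length and, by an indirect measure, in depth. WT lists held 54997 to 160426 peaks on chromosomes 1 to 19, KO lists 60832 to 138007 and mESC lists 23876 to 33496. The step between common fold values was taken as the fold that 1 read adds. It ranged from 0.127 to 0.228 over the pre-iPSC lists, a smaller step being read as more reads. Read counts were not at hand to check this. By this step KO1 was the deeper line at D10 (0.140 against 0.189 in KO2), although their lists held nearly the same number of peaks (111808 and 111075). The run name of WT D0 C alone does not mention an input; this list and WT D10 C were the shortest of their days (61378 and 54997 peaks). Run names come in styles, 1 of them shared by WT B and KO1 and another by WT C and KO2. A label says that no peaks were called for the mESC samples, but lists of the same layout are among the files and were used. Regions are named by their mm9 positions alone, since neither genes nor sequence of mm9 were used.

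Of the 12325 regions with a peak in all 6 WT lists of D0 and D2 and none at D10, most had a D10 peak in at least 1 KO line. Both lines had one in 6605 (53.6%, 95% Wilson interval 52.7 to 54.5), KO1 alone in 4950 (40.2%, 39.3 to 41.0), KO2 alone in 297 (2.41%, 2.15 to 2.70) and neither in 473 (3.84%, 3.51 to 4.19). Intervals here and below cover counting error only. The last set is called resolved, as WT and KO cells both lacked a peak at D10. Both KO lines had a D10 peak in 17% of all merged WT regions. Of the 22324 regions with all 6 WT D0 and D2 peaks, whatever the WT D10 lists held, 65.5% had one in both lines. The early regions are part of that set and lay below it, at 53.6%. The share was 88.5% for regions with a peak in all 9 WT lists, 29.8% for those seen in WT at D2 only and 1.94% for those at D0 only. These shares rest on the lists that chose the regions and are not tested.

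KO1 had D10 peaks in more of these early regions than KO2. Of the early regions with a KO2 peak at D10, 95.7% (95.2 to 96.2) had a KO1 peak, but 91.3% (90.5 to 92.0) of those without a KO2 peak had one too. KO2 had a D10 peak in 57.2% (56.3 to 58.1) of the early regions with a KO1 peak and in 38.6% (35.2 to 42.1) of those without. The number of regions kept was thus set largely by KO2: asked of KO1 alone the rule gives 11555 regions, and of KO2 alone 6902. Within the styles of the run names, 83.5% (83.1 to 83.8) of the regions with a WT B peak at D0 and D2 and none at D10 had a KO1 peak at D10, against 33.9% of all merged regions. For WT C and KO2 these shares were 57.3% (56.7 to 57.8) and 29.8%.

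The absence of WT peaks at D10 was also read in libraries that had not chosen the regions. Regions were chosen with a pair of WT letters, together with both KO D10 lists, and the remaining letter was read (7852 to 10343 regions). A D10 peak was present in 17.6% of them in A, 10.1% in B and 4.46% in C, a mean of 10.7 ± 6.59% (SD, n = 3). Among all merged WT regions these D10 shares were 28.2%, 25.3% and 17.8%. Among regions with all 6 WT D0 and D2 peaks they were 36.4%, 31.2% and 21.4%. That background requires D0 and D2 peaks of the letter that is read, which the held-out choice does not. The held-out letters had a peak in 84.4 ± 12.9% at D0 and 96.4 ± 2.71% at D2 (SD, n = 3 each). Among all merged WT regions the shares in A, B and C were 29.4%, 38.0% and 20.1% at D0 and 51.3%, 42.4% and 33.5% at D2. The order of the D10 shares, A, B, C, was the order of the D10 list lengths (86096, 77245 and 54997 peaks). Resolved regions chosen in this way had a held-out D10 peak in 6.67%, 4.09% and 1.89% of cases, a lower share than in kept regions for each letter. The difference of 6.49 ± 4.20 points (SD, n = 3) had a two-sided exact sign-flip p of 0.25, the smallest that 3 pairs allow.

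The KO libraries of D0 and D2 did not enter the rule, and they show the history of these regions in the mutant lines. KO1 had a peak in 83.1% of kept regions at D0 and in 96.4% at D2. KO2 had one in 78.5% at D0 and in 90.4% at D2. Among all merged WT regions the shares were 19.1% and 40.8% in KO1 and 23.5% and 30.5% in KO2, but that background includes many regions seen in a single WT list. Among the 22324 regions with a peak in all 6 WT lists of D0 and D2, whatever happened at D10, the shares were 81.2% and 92.8% in KO1 and 79.7% and 81.7% in KO2. At D0 the kept regions were within 2 points of this stricter background in both lines, and at D2 they lay above it in both. Kept regions are themselves part of that background.

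Most kept regions had a peak at every KO stage. All 4 KO lists of D0 and D2 had one in 4185 regions (63.4%, 62.2 to 64.5), against 57.2% of the regions with all 6 WT D0 and D2 peaks and 7.12% of all merged WT regions. Both KO lists of D0 had a peak in 4600 kept regions (69.6%), against 69% and 12.6% in these backgrounds, and both of D2 in 5776 (87.4%), against 77.8% and 22.4%. A further 379 (5.74%) had no peak in either KO list of D0 and one in both of D2, near the 4.82% of regions with all 6 WT D0 and D2 peaks and below the 9.24% of all merged WT regions. Peaks in both D0 lists and neither D2 list were found in 22 kept regions (0.333%, against 1.63% and 2.62%), and peaks in none of the 4 lists in 11 (0.167%, against 0.618% and 42.3%). The next most common histories lacked 1 list of D0: KO2 in 704 regions and KO1 in 508.

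In resolved regions the KO shares were lower in each of these lists. They had a peak in 48.4% of cases in KO1 D0, 59.8% in KO2 D0, 49.5% in KO1 D2 and 34.7% in KO2 D2. Kept regions exceeded them by 34.7, 18.7, 46.9 and 55.7 points in these 4 libraries, a mean of 39.0 ± 16.0 points (SD, n = 4). The difference was positive in 4 of 4 libraries, with a two-sided exact sign-flip p of 0.13, the smallest that 4 libraries allow. That p treats the libraries as independent. They are D0 and D2 of KO1 and KO2, assumed to be lines followed over the days, whose D10 lists separated the sets. Resolved regions were shorter and had weaker WT peaks (below), and the mean difference was 33.9 points when compared within 10 groups of like length and 27.2 points within groups of like WT peak strength.

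A smaller contrast, seen mainly at D2, came from the 4950 regions with a D10 peak in KO1 but not in KO2. At D0 these had almost the same shares as kept regions: KO1 had a peak in 82.5% and KO2 in 77.9%, within 0.543 and 0.673 points of the kept regions. At D2 the difference was 11.3 points in KO1 (85.1% of KO1-only regions) and 31.8 points in KO2 (58.6%). The mean over the 4 libraries was 11.1 points (exact sign-flip p = 0.13, again treating the libraries as independent), and the D2 differences carried it. KO2 D10, the list that separates these sets, and KO2 D2 come from the same line. By the step between fold values, KO2 was the shallower line at D2 as at D10 (0.184 against 0.127). The part of line and depth in that difference was not tested.

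**Figure D1:**
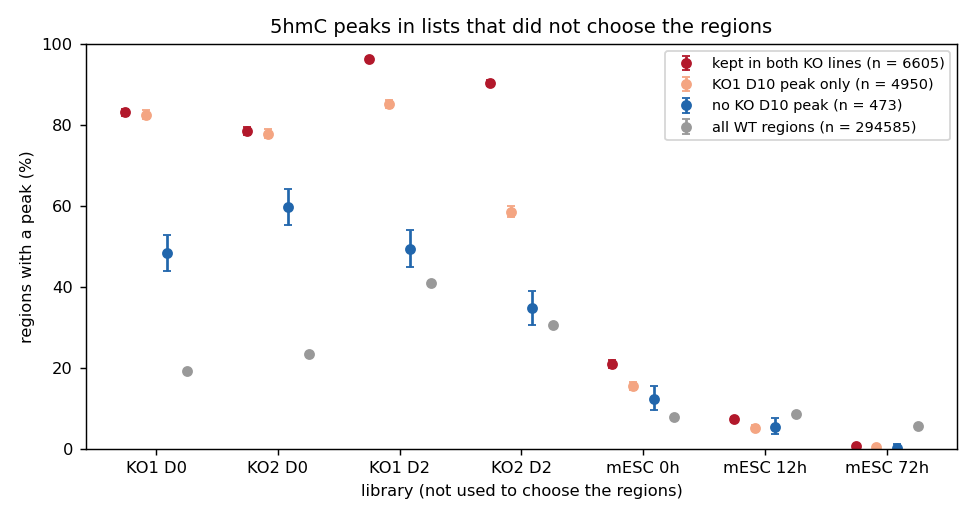
Share of regions with a called 5hmC peak (percent, y axis) in the KO lists of days 0 and 2 and in the 3 mESC lists (x axis), none of which chose the regions. Points are shares with 95% Wilson intervals for kept regions, regions with a D10 peak in KO1 only, resolved regions and all merged WT regions; kept and KO1-only regions coincide in both D0 lists and part in both D2 lists.

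The strength of the WT peaks is given as a description, with no test, because it comes from lists that chose the regions. Each peak was given its percentile rank within its own list by the authors' -log10 p, 100 being the strongest, and a region took the rank of its strongest peak. At D0 the median rank of kept regions was 69.4, 74.8 and 68.8 in A, B and C, against 52.6, 56.1 and 58.4 in resolved regions. At D2 the medians were 84.6, 83.0 and 80.6 against 51.8, 43.6 and 39.6. Kept regions were the stronger in 6 of 6 libraries, by 26.5 ± 12.9 points (SD, n = 6). The 6 libraries read the same regions.

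The difference between kept and resolved regions was 15.3 ± 4.32 points over the D0 libraries and 37.7 ± 4.30 points over the D2 libraries (SD, n = 3 each). The D2 lists were longer (105785 to 160426 peaks, against 61378 to 114860). These values therefore stand side by side, and whether the difference changed between days was not tested. Compared within 10 groups of like length, the D0 libraries differed by 9.56, 12.5 and 14.8 points (A, B and C) and the D2 libraries by 32.2, 40.1 and 38.8 points. Against KO1-only regions, kept regions differed at D0 by -3.27, -3.68 and 0.661 points, so that neither set was the stronger in all 3 letters. At D2 they were stronger by 16.3, 16.5 and 18.97 points. Over all 6 libraries that difference averaged 7.58 points.

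**Figure D2:**
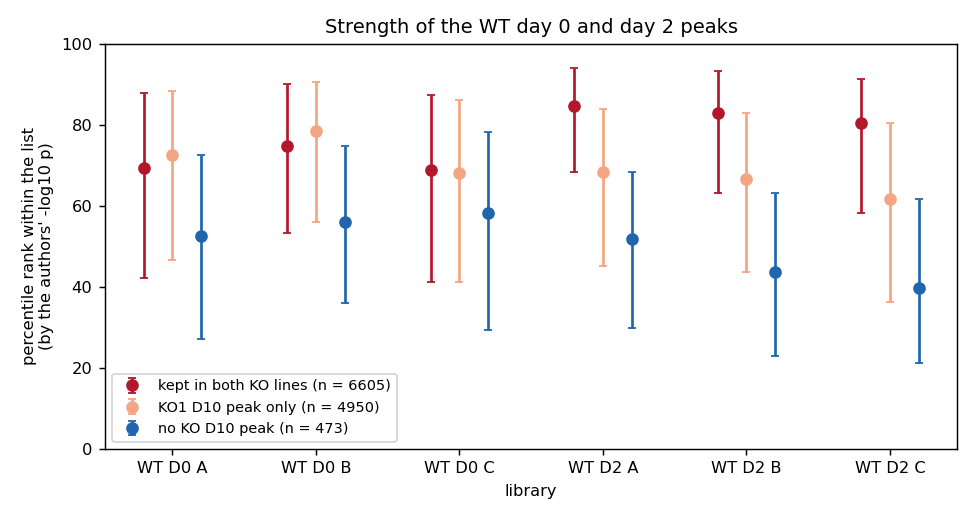
Percentile rank of the strongest peak within its list (y axis, 100 is the strongest) in the 6 WT lists of days 0 and 2 (x axis). Points are medians and bars the middle 50% of regions; at D2 the kept regions (medians 80.6 to 84.6) lie above KO1-only regions (61.6 to 68.3) and resolved regions (39.6 to 51.8), while at D0 kept and KO1-only regions lie together.

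The same pattern appeared when the 12325 early regions were divided into 10 groups of near-equal size by WT peak strength, here as a description because the fate at D10 was read from the lists of the rule. By strength at D2 the kept share was 26.2% in the weakest group and 87.3% in the strongest, and it was higher in each group than in the one before. By strength at D0 it stayed between 51.1% and 58.7%. The resolved share was 13.1% in the weakest D2 group and no region was resolved in the strongest. It also differed by strength at D0, with 7.54% in the weakest group and 0.811% in the strongest. The KO1-only share was 32.7% and 40.1% in these D0 groups. By length, 30.9% of the shortest group (median 427 bp) and 76.8% of the longest (median 1706.5 bp) were kept. Longer regions are easier to overlap by 1 bp and hold more peaks to draw the best rank from. Kept regions had a median length of 884 bp (range 311 to 4932), KO1-only regions 714 bp, resolved regions 585 bp and all merged WT regions 390 bp.

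**Figure D3:**
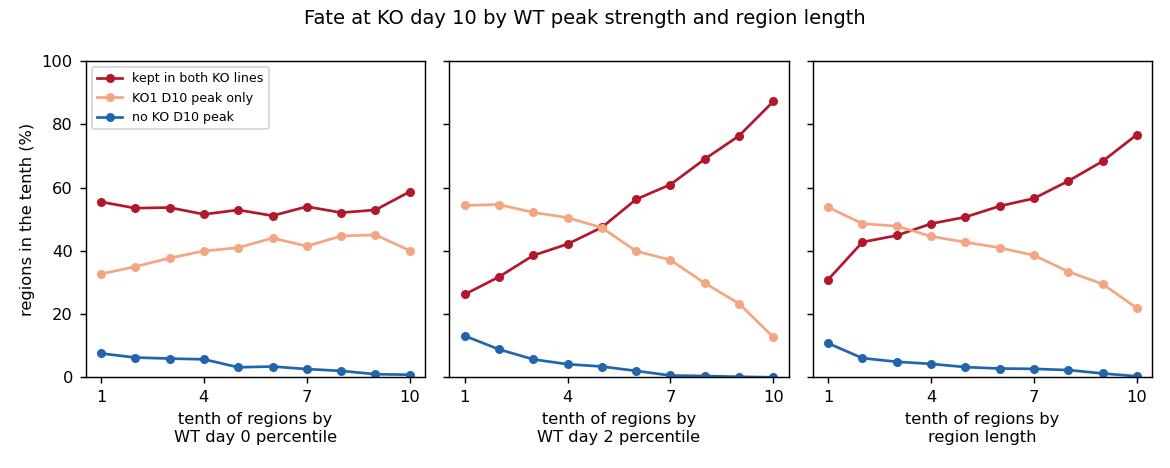
Share (percent, y axis) of the early regions that were kept, had a D10 peak in KO1 only or were resolved, by 10 groups of near-equal size (x axis, from low to high) of mean WT D0 rank, mean WT D2 rank and region length. The kept share runs from 26.2% to 87.3% over the D2 groups and stays between 51.1% and 58.7% over the D0 groups. The resolved share is 7.54% in the weakest D0 group and 0.811% in the strongest.

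Ranks from lists of different lengths cannot show a change between days, so each pre-iPSC list was also restricted to its 54997 strongest peaks, the length of the shortest. Such a strong peak was present in 76.3%, 76.2% and 95.3% of kept regions at WT D0 (A, B and C) and in 77.1%, 80.9% and 82.5% at WT D2. The means, 82.6% and 80.2%, were near those of all regions with all 6 WT D0 and D2 peaks (83.9% and 76.0%) and far above those of all merged WT regions (18.2% and 17.97%); the rule asks for a peak in each of these lists, so they are not tested. The difference of -2.44 points from D0 to D2 took its sign from WT D0 C, the shortest D0 list, without which D2 was 3.91 points higher. In resolved regions strong peaks were present in 68.7 ± 21.4% at WT D0 and 33.5 ± 6.16% at WT D2 (SD, n = 3 each), without overlap. In KO cells strong peaks were present in 79.8% and 61.7% of kept regions at D0 (KO1 and KO2), 74.6% and 67.4% at D2, then 83.8% and 62.2% at D10. KO1 was above KO2 on each of these days, and a D10 peak of some strength was required by the rule. Among the regions with all 6 WT D0 and D2 peaks the KO means were 71.5% at D0 and 64.2% at D2, against 70.7% and 71.0% in kept regions.

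Change from D0 to D2 in KO cells was tested region by region. The bp of each region under the strongest peaks were compared with limma on log2(bp + 100). The fit ran over all 15 libraries and the 117589 of 294585 merged regions with a mean of at least 50 bp. Each region has 1 estimate of spread over all libraries, so the lists that chose the regions enter it. In kept regions the 3 WT D10 lists hold 0 bp by the rule and add no spread. The calls and p-values of kept regions rest in part on this. Peaks that the rule requires also help kept regions pass the 50 bp filter. Of the 6605 kept regions 6582 entered the test; 187 rose (2.84%, against 2.92% of all regions tested) and 134 fell (2.04%, against 3.67%) at a Benjamini-Hochberg adjusted 0.05. In this fit the share that rose was near the background and the share that fell below it, but the order depended on the setting. With KO1 D0 left out 354 kept regions rose (5.38%, against 1.92% of all tested), and with KO1 D2 left out 69 (1.05%, against 1.55%). The share that fell was 2.51% against 2.35% without KO1 D2 and 2.61% against 2.51% without KO2 D2. With a mean of at least 200 bp 185 rose (3.28%, against 6.54%) and 110 fell (1.95%, against 3.24%). The median log2 change was 0.01 in kept regions and 0 over all regions tested. Of the 473 resolved regions 406 entered; 1 rose and 49 fell (12.1%), with a median of -1.01. With the KO line as a block 109 kept regions rose (1.66%, against 1.52%) and 64 fell (0.972%, against 2.42%). With all deposited peaks and no scaling 499 rose (7.55%, against 5.70%) and 37 fell (0.56%, against 1.89%), on a scale where the median of all regions moved by 0.39, and within the 4 KO libraries alone limma called none (424 rose and 436 fell at an unadjusted 0.05).

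The kept regions that rose most from D0 to D2 in KO cells had no strong peak at D0. On chromosome 9, 100480347 to 100481839, KO1 and KO2 held 0 and 0 bp at D0 and 1362 and 1487 bp at D2 (log2 change 3.93, SE 0.25, limma adjusted p = 0.000105). Within the 4 KO libraries alone its limma adjusted p was 0.0581, as for the other regions named for a rise or a fall. The size of such a change from 0 bp is set by the pseudocount: it was 6.17 with 20 bp, 1.94 with 500 bp and 2.15 with all deposited peaks. Chromosome 17, 29556326 to 29558530, held 0 and 0 bp, then 1549 and 1248 bp (limma adjusted p = 0.000182), and chromosome 15, 38907570 to 38909292, held 0 and 0 bp, then 1467 and 1199 bp (limma adjusted p = 0.0134). With any KO library of D0 or D2 left out, the limma adjusted p of the chromosome 15 region ran from 0.0513 to 0.0927. In 5 of these 6 D0 readings the whole list had a weaker peak of 167 to 516 bp. The KO groups did not overlap in any of these regions, which was a condition for naming them. With all deposited peaks the chromosome 17 region changed by 1.55 on the log2 scale and lost the call (limma adjusted p = 0.097).

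The largest falls went the other way and were followed by a D10 peak in both lines, as the rule requires. Chromosome 6, 99862556 to 99864809, held 2029 and 1892 bp at D0 (KO1 and KO2) and 0 and 0 bp at D2 (limma adjusted p = 0.0354). Chromosome 1, 135104574 to 135107162, held 1551 and 1142 bp, then 0 and 0 bp (limma adjusted p = 0.0188). In both, KO2 had no deposited peak at D2 and KO1 a weaker one of 358 and 253 bp. The blocked fit gave these limma adjusted p of 0.0814 and 0.0653, and leaving out any KO library of D0 or D2 also ended both calls (0.0618 to 0.15). Chromosome 2, 157246260 to 157248971, held 1582 and 1376 bp and then 0 and 0 bp (limma adjusted p = 0.000207). There the whole D2 list of KO1 still covered 1789 bp with weaker peaks, and with all deposited peaks the change was -0.98 (limma adjusted p = 0.487).

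Within the regions, the KO D10 peaks lay closer to the WT peaks of D2 than to those of D0. Between replicates the summits of the strongest peaks were a median of 45.3 bp apart at WT D0 (3 pairs, 41 to 48) and 47.7 bp at WT D2 (45 to 50). Between WT D0 and WT D2 the distance was 93.1 bp (9 pairs, 86 to 100). KO2 D10 summits lay 148 bp from WT D0 summits (139 to 153) and 68.7 bp from WT D2 summits (66 to 72). KO1 D10 summits lay 66.7 bp (66 to 67) and 54.3 bp (50 to 58) away, and 86 bp from those of KO2 D10. For both lines the distance to each WT D2 list was shorter than that to any WT D0 list. These are medians over the same regions and were not tested. A summit within 100 bp was found in 61.2% of regions for KO2 D10 with WT D2 and in 39.9% for KO2 D10 with WT D0.

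**Figure D4:**
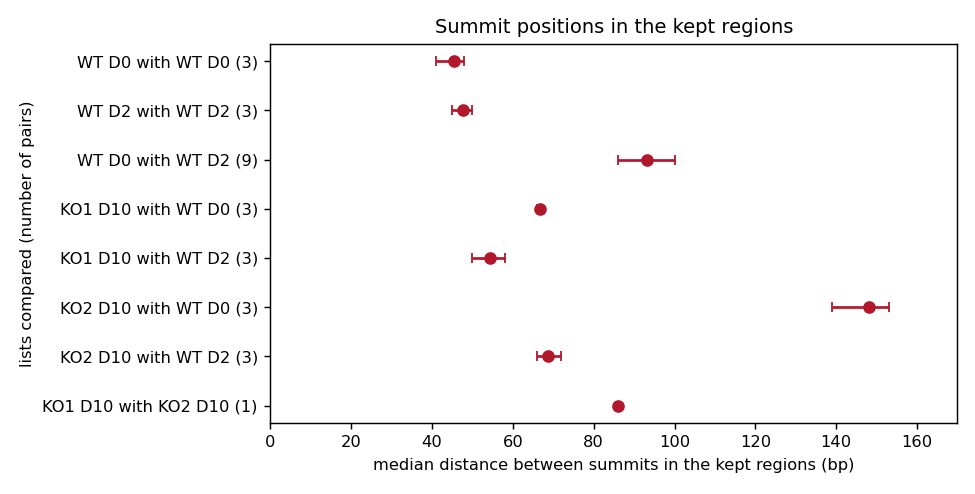
Median distance in bp (x axis) between the summits of the strongest peaks in the 6605 kept regions, for pairs of lists (y axis, number of pairs in brackets). Points are means over pairs and bars the lowest and highest pair; KO2 D10 lies 148 bp from WT D0 and 68.7 bp from WT D2.

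The peaks that remained in KO cells differed between the lines. KO1 D10 peaks covered a median of 76.2% of the kept region they lay in (608 bp), and KO2 D10 peaks 48.2% (384 bp). The WT D2 medians were 74.4%, 75.5% and 67.9% in A, B and C. WT D0 lists spread more widely, with 60.3% for A, 80.4% for B and 51.4% for C. KO1 D10 thus lay within the span of the WT D0 lists and just above those of WT D2. KO2 D10 lay below every WT list of either day. It was also below the earlier lists of its own line (57.6% for KO2 D0, 58.5% for KO2 D2). For KO1 those values were 67.5% and 74.0%. The median ranks of the KO D10 peaks within lists of nearly equal length were 82.4 in KO1 and 63.1 in KO2, with median folds over background of 6.92 and 4.95. The folds are the authors' values and depend on depth, in which the lines differed by the step between fold values (above). The part of depth in the difference was not tested.

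The longest kept region was chromosome 13, 53328768 to 53333699 (4932 bp). Peaks covered 2413, 2830 and 639 bp of it at WT D0 (A, B and C), 3457, 3078 and 2904 bp at WT D2 and none at WT D10. In KO1 they covered 1871, 3060 and 3113 bp at D0, D2 and D10, and in KO2 2252, 1400 and 2434 bp. Every WT and KO list of D0 and D2 thus had a peak there, with ranks from 90.6 to 99.1, but KO2 D10 ranked at 66.2. No mESC list had one.

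Chromosome 12, 12943239 to 12947137 (3899 bp), was evenly marked. It held 2993, 2771 and 1411 bp at WT D0, 2822, 3105 and 2914 bp at WT D2, 1956, 2071 and 2145 bp in KO1 at D0, D2 and D10, and 3276, 2714 and 2069 bp in KO2. Its ranks in both KO lines were between 94.6 and 99.3 on every day. On chromosome 9, 72658311 to 72662137 (3827 bp), 1 mESC list, that of 0 hours, had a peak over 233 bp; WT held 3178, 3733 and 447 bp at D0 and 1657, 1861 and 1769 bp at D2, and KO1 and KO2 held 2624 and 841 bp at D10.

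The remaining long regions held more bp at D2 than at D0 in KO cells, and 1 of them also in WT cells. Chromosome 2, 147013155 to 147017025 (3871 bp), held 785, 757 and 467 bp at WT D0 and 3045, 2571 and 2627 bp at WT D2. KO cells followed the same course, with 873 and 779 bp at D0 (KO1 and KO2), 2580 and 1336 bp at D2 and 2007 and 1399 bp at D10. The groups of D0 and D2 did not overlap in either genotype. Chromosome 8, 127544240 to 127548569 (4330 bp), had 372 bp in KO1 and no peak in KO2 at D0, 3346 and 3302 bp at D2 and 3232 and 2912 bp at D10. In WT cells it held 3470, 3467 and 1530 bp at D0 and 3624, 1139 and 1963 bp at D2, with overlap.

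The regions strongest in both KO D10 lists ranked above 99.6 in each. Chromosome 9, 51854930 to 51855744 (815 bp), had D10 folds of 14.7 in KO1 and 11.4 in KO2. Its ranks at WT D0 were 25.3, 81.9 and 96.4 (A, B and C) and at WT D2 98.6, 99.6 and 98.7. Chromosome 3, 8765864 to 8767409 (1546 bp), ranked at 32.4, 69.8 and 95.4 at WT D0 (A, B and C). In KO1 and KO2 it ranked at 13.0 and 60.0 at D0 and at 99.5 and 99.0 at D2. The lists differ in length between days, so these ranks do not show a change. Chromosome 14, 73246310 to 73248560, ranked at 97.6 or higher in all 6 WT lists of D0 and D2. It was also the only region of these 5 with an mESC peak, at 0 hours. Chromosome 9, 62195012 to 62198029, and chromosome 11, 103221941 to 103224105, completed the set, with folds of 15.3 and 15.2 in KO1 and 9.84 and 10.6 in KO2 at D10. None of these 5 had a WT D10 peak, as the rule requires, and in 4 of the 5 no mESC list had one. Over all kept regions, 25.3% had a peak in at least 1 mESC list.

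Embryonic stem cells shared some of the kept regions, depending on the list. The 0 hour list had a peak in 1381 kept regions (20.9%, 19.9 to 21.9), against 7.78% of all merged WT regions. The 12 hour list had one in 480 (7.27%, 6.67 to 7.92), against 8.63%, and the 72 hour list in 39 (0.59%, 0.432 to 0.806), against 5.66%. Among regions with all 6 WT D0 and D2 peaks the shares were 22.9%, 15.7% and 3.99%. Kept regions were thus within 2 points of that background at 0 hours and below it at 12 and 72 hours. That background includes regions with WT D10 peaks. Among all early regions, which have none, the shares were 18.3%, 6.38% and 0.495%, slightly below those of kept regions in each list. KO1-only regions had 15.5%, 5.25% and 0.384%, so low shares at 12 and 72 hours were not particular to kept regions. In all, 2 kept regions (0.0303%) had a peak in all 3 mESC lists. The share was 0.369% of all merged WT regions and 0.730% of the regions with all 6 WT D0 and D2 peaks. With 1 library per time there is no replicate check.

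Kept regions exceeded resolved ones by 8.65 points in the 0 hour list (95% interval 5.24 to 11.5). The differences were 1.98 points at 12 hours (-0.493 to 3.78) and 0.379 points at 72 hours (-0.61 to 0.656), both with intervals that include 0. The 0 hour difference was 7.57 points within 10 groups of like length, 4.32 points when peaks had to cover 50% of a region and 1.73 points with the strongest peaks. Kept regions with a 0 hour mESC peak had a median length of 908 bp, against 878 bp without one, and median mean WT D2 ranks of 81.9 and 79.8. The mESC peaks in kept regions ranked at a median of 54.7, 45.4 and 49.0 within the lists of 0, 12 and 72 hours.

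The longest kept regions with a peak in more than 1 mESC list were on chromosome 8 (110343633 to 110346669), chromosome 1 (35998207 to 36001084) and chromosome 10 (111348964 to 111351573). Each had its mESC peaks at 0 and 12 hours and none at 72 hours. On chromosome 1 they covered 594 and 198 bp, against 1971, 2063 and 1913 bp in WT at D2 and 2209 and 641 bp in KO1 and KO2 at D10.

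Kept regions lay on every chromosome from 1 to 19 and made up 1.85 to 2.63% of the merged regions of each. Chromosome 5 stood apart: 43.8% (40.3 to 47.4) of its early regions were kept, against 49.7 to 59.0% on the other 18, while 55.7% were KO1-only (33.6 to 43.0% elsewhere) and 0.541% resolved (3.40 to 5.15% elsewhere). KO1 D10 had a peak in 55.7% of all merged regions of chromosome 5, against 30.1 to 34.7% elsewhere, and KO2 D10 in 22.7%, against 28.1 to 33.2%. The part of this excess in the results was read by leaving it out: without the 324 kept regions of chromosome 5, the differences from resolved regions were 39.0 points in KO share and 26.4 points in WT rank.

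**Figure D5:**
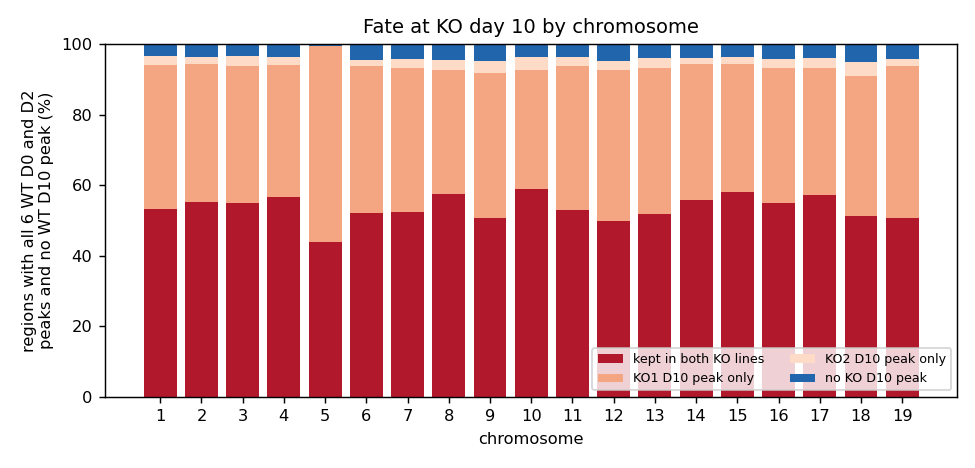
Fate at KO D10 (stacked percent of the early regions, y axis) on chromosomes 1 to 19 (x axis). The kept share is 43.8% on chromosome 5 and 49.7 to 59.0% on the others, and KO1-only regions make up 55.7% of chromosome 5.

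Regions just outside the rule were as follows. A peak in a single WT D10 list barred 2523 regions, in A in 1493 of them, in B in 733 and in C in 297, and the barring peaks had median ranks of 39.8, 34.2 and 31.3 within their lists. The lack of a single WT D0 peak barred 3898, of which C lacked it in 2605, and the lack of a single WT D2 peak barred 644. The longest region barred by WT D10 was chromosome 8, 87227590 to 87232770 (5181 bp), where WT D10 A had 1 peak of 236 bp at rank 35.0. The next was chromosome 2, 9801762 to 9806494, where the WT D10 A peak spanned 265 bp at rank 20.5. The longest regions that KO2 barred were chromosome 13, 56210216 to 56213697, with 2990 bp under KO1 D10 peaks, and chromosome 16, 58618352 to 58621185, with 1217 bp.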

How the data were processed

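Enriched 5hmC libraries of 15 pre-iPSC and 3 mESC samples were analysed; the input sample has no list of its own. Sonicated DNA of 200 to 500 bp was tagged at 5hmC with biotin through a modified glucose, captured and amplified over 14 cycles, per the labels' protocols. Bowtie, SAMtools, MACS2 and mm9 are named in the submitters' processing notes, with no versions in the sources at hand. Each deposited list holds the authors' score, fold enrichment (a linear ratio over background at the summit), -log10 p and -log10 q per peak, and run names carry a p threshold of 0.0001. Total read depth is not given in these lists.

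Samples were grouped by title. Peaks on chromosomes 1 to 19 were merged and counted as shared at 1 bp of overlap (Python 3.11.15, checked against bedtools on simulated data). Ranks were taken within lists, ties averaged. Libraries, not regions, were the units of exact tests. WT peak ranks and strong-peak shares, for which a test was planned, are given without one because the same lists chose the regions. KO D2 against D0 used limma 3.58.1 (trend, robust, 6 groups, Benjamini-Hochberg at 0.05) on log2(covered bp + 100) under the 54997 strongest peaks, tested on simulated data. By their titles, KO1 and KO2 are assumed to be lines followed over the days, which would pair the KO samples; deviations of KO1 from the D0 and D2 means correlated by 0.17 over regions (0.16 without chromosome 5; with 2 lines, KO2 mirrors KO1), while those of WT letters correlated by -0.02 to 0.01 (D0 with D2) and were not treated as pairs.

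Regions named are the 5 longest, the 5 whose lower KO D10 rank is highest, the 3 largest rises and 3 largest falls called by limma with groups that do not overlap, the 3 longest with at least 2 mESC lists, the 3 windows of 1 Mb with most kept regions, and the 2 longest on each of a pair of edges of the rule. The gene names and sequences planned for them need an mm9 reference, and the tables at hand are on GRCm38. The regions, sets and tests were chosen with earlier results of these data known. Held-out letters, the comparison with KO1-only regions, groups of like WT D2 rank and the threshold on -log10 q of 5 were added after seeing the data.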

Additional observations from a re-analysis of the deposited data

How the results depend on the processing

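The number of kept regions was 2279 with the strongest peaks alone, 1882 when peaks of a library had to cover 50% of a region, and 6105 at a -log10 q of 5; a -log10 q of 2 left it at 6605, as every pre-iPSC peak passed it. Leaving out each of the 9 WT and 2 KO D10 libraries gave 6741 to 11555 regions, the highest without KO2 D10; without WT D0 C it was 9210. The KO share difference kept its sign under every setting run (33.4 to 45.8 points with a library left out), as did the WT rank difference (24.1 to 29.3 points); against KO1-only regions the latter was 7.58 points. The 12 and 72 hour mESC differences, whose intervals include 0, went down to -0.306 points within groups of like length and -0.152 points at a -log10 q of 5. The mESC 0 hour difference was 1.73 points with the strongest peaks and 4.32 points at 50% coverage. The D2 minus D0 share of strong WT peaks turned to 0.989 and 3.10 points with 40000 and 20000 peaks and ran from -5.62 to 3.91 points with a library left out; with the letters as a replicate block it was -2.44 points. Of kept regions limma called 187 up and 134 down; the counts were 109 and 64 with the replicate block, 499 and 37 with all deposited peaks, 94 and 59 with no filter, 0 and 0 in the 4 KO libraries alone, where the 6 named regions had an adjusted p of 0.0581 (424 and 436 at an unadjusted 0.05), and 69 to 354 and 53 to 172 with a library left out, the extremes without KO1 D2 and KO1 D0 (up) and without KO1 D0 and KO2 D2 (down). The cause of these shifts was not tested. Of 19 named kept regions, 11 were still kept with the strongest peaks, 2 at 50% coverage, 16 at a -log10 q of 5 and 18 when regions were merged over all 15 lists. Total depth is unknown, so the lack of a called peak is not the absence of 5hmC.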

Other observations

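Kept regions were spread widely but unevenly over the genome. Of 2414 windows of 1 Mb that held a merged WT region, 1564 held a kept one, and the median window held 1. The most, 21 of 36 early regions, lay on chromosome 11 between 116000001 and 117000000, with 12 KO1-only and 1 resolved. Windows on chromosome 2 (166000001 to 167000000) and chromosome 17 (29000001 to 30000000) held 19 each, of 32 and 27 early regions. The chromosome 17 window held no resolved region, and the region there that rose from D0 to D2 in KO cells lies within it. These windows are also rich in merged WT regions of any kind (534, 474 and 458). The gap to the nearest other kept region had a median of 41882 bp, and 1400 kept regions (21.2%) had another within 10 kb. Within the other sets the share was 31.3% for early regions, 15.3% for KO1-only and 1.27% for resolved regions, in the order of their numbers.

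The distance to 5hmC that WT cells did hold at D10 differed little between the sets. For kept regions the nearest WT D10 peak was a median of 3019 bp away, and within 1 kb for 22.0% and within 10 kb for 80.9%. For all early regions the values were 3283 bp, 21.0% and 79.6%, for resolved regions 3622 bp, 18.6% and 78.6%, and for all merged regions with no WT D10 peak 3887 bp, 19.4% and 73.2%.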
